A study of Mus musculus with 6 samples.

Results

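The enzymes of the methionine cycle and of transsulfuration were followed in whole mouse pancreas in which the homeobox transcription factor Prox1 was made ectopically in cells with a history of Ptf1a expression. The members were 10 genes out of the 23337 symbols of the count table, namely Mat1a, Mat2a, Mat2b, Gnmt, Ahcy, Cbs, Cth, Bhmt, Mtr and Pemt, each found as an exact symbol in all 6 libraries. The members were picked by their role in the pathway with the CPM values (counts scaled to library size) of this same comparison already in view, and with the ratio of Mat1a to Mat2a as a stated part of the choice. Their CPM values, fold changes and ratios between the groups are therefore given as a description, with no p-value, and no conclusion about the pathway rests on them.

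The mutant group was 3 libraries from NMRI mice that carried Ptf1a cre/+ together with the transgene CAG-loxP-STOP-loxP-Prox1-LacZ, at postnatal day 7, and the control group was 3 libraries from NMRI mice of genotype Ptf1a cre/+ at the same age. Both groups thus carried 1 Ptf1a allele with an inserted Cre recombinase. In mutants Cre excises a stop signal, after which Prox1 and LacZ are transcribed from the CAG promoter in cells with a history of Ptf1a expression. According to the design text controls were pools and mutants were single organs, while the extraction protocol mentions only individual organs, so pooling and genotype cannot be told apart. Nothing states how the mice relate to litters, and p-values measure only the spread between these 6 libraries.

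Methionine adenosyltransferases make S-adenosylmethionine, the methyl donor of the cell, from methionine and ATP. Mat1a encodes the catalytic subunit known for adult liver, Mat2a the catalytic subunit of most other tissues, and Mat2b a regulatory subunit that binds the Mat2a product. After the methyl group is handed on, for example by Gnmt to glycine or by Pemt to phosphatidylethanolamine, S-adenosylhomocysteine is left and is split by Ahcy into adenosine and homocysteine. Homocysteine is either methylated back to methionine, by Mtr with folate and vitamin B12 or by Bhmt with betaine, or led through Cbs and Cth to cysteine. Exocrine pancreas is known as a tissue with active transsulfuration and abundant Gnmt protein.

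Library totals lay between 7729161 and 9957737 counts in mutants and between 7304727 and 10773223 counts in controls. After scaling, 1 CPM stood for 6.65 to 10.5 counts, and a count of 0 allows a level of up to 0.286 to 0.451 CPM, the value of 3 counts, which covers counting error only. Prox1 had 25.5, 31.3 and 30.9 CPM in mutants 1 to 3, against 10.8, 7.84 and 9.13 CPM in controls 1 to 3. It rose, with a log2 fold change of 1.67 ± 0.15 (SE, n = 3 each, edgeR adjusted p = 0.000239), as the labels require. Ptf1a, the acinar factor whose locus holds Cre, averaged 14.9 ± 0.529 CPM in mutants and 19.8 ± 1.85 CPM in controls (SD, n = 3 each), which was not called (edgeR adjusted p = 0.161). Acinar markers fixed as a list were detected in 15 of 15 cases and summed to between 330100 and 389700 CPM in mutants and between 386500 and 429400 CPM in controls, as the tissue label requires. Control 1 was the one library with Xist in number, at 7110 counts, and had 0 counts of the Y-linked genes Ddx3y, Uty, Kdm5d and Eif2s3y. The other 5 libraries had 1 to 4 counts of Xist and 1132 to 1463 Y-linked counts. Control 1 was thus female by these genes and the others male, so sex was not balanced between the groups. Fits without control 1 hold male libraries only. Mutant 2 had the highest sum of 9 macrophage markers, 447 CPM, against 330 and 291 CPM in mutants 1 and 3 and between 246 and 298 CPM in controls. The markers on this list differed, so the sum does not stand for all of them. Ptprc had 57.0 CPM in mutant 2, against 5.05 and 4.69 CPM in mutants 1 and 3, and Lyz2 had 139 CPM, against 56.4 and 52.3 CPM. Mrc1 and Cd14 were instead lowest in mutant 2 among the mutants, at 77.5 and 6.85 CPM. Lymphocyte markers summed to 54.3 CPM in mutant 2, against 2.95 to 18.7 CPM in the other 5 libraries. Marker sums of adipocytes were 71.4 to 83.5 CPM in mutants and 113.5 to 180.4 CPM in controls, and those of ducts 552 to 764 CPM in mutants and 777 to 869 CPM in controls, without overlap. Of 11 duct markers 0 were called, and directions differed, with log2 fold changes of -0.45 ± 0.12 for Spp1 and 0.89 ± 0.21 for Cldn4. Lymphatic marker sums, 51.7 to 58.1 CPM in mutants and 36.8 to 50.1 CPM in controls, did not overlap either. Of these markers Reln was called higher (edgeR adjusted p = 0.0174). Of the adipocyte markers 0 were called higher and 2 lower, and of the macrophage markers 2 higher and 1 lower. Of the acinar markers, Cel fell (log2 fold change -0.93 ± 0.15, edgeR adjusted p = 0.00881). The part of these shifts in the results on the members was not tested. In RNA of a whole organ, fewer cells of a type and less RNA per cell cannot be told apart.

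Because Mat1a and Mat2a arose from a common ancestor, their separation in the counts was examined first on the sequence. Mat1a lies on chromosome 14 at 41105035 to 41124412 (GRCm38, plus strand) and Mat2a on chromosome 6 at 72432799 to 72439558 (minus strand), both protein-coding genes of the GENCODE M21 annotation. The coding sequences of the GENCODE transcripts Mat1a-201 and Mat2a-201 are 1188 and 1185 bases long and had 73.1% identical bases over 1185 aligned positions, with a longest identical run of 15 bases. The stretch of 60 coding bases in which both genes are most alike is shown 5′ to 3′ because it is where a read would be hardest to place. It covers coding bases 260 to 319 of Mat1a and 257 to 316 of Mat2a, and the capitals mark the 8 bases that differ.
Mat1a: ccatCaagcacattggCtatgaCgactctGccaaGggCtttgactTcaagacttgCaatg
Mat2a: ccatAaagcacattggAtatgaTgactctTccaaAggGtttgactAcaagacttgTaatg
Reads of both genes therefore differ even there. Of all stretches of 50 bases in the transcripts of Mat1a, 0% occurred in transcripts of another gene, and the same share was 0% for Mat2b, Gnmt, Cth and Mtr, 0.0896% for Pemt and 1.25% for Cbs. In Mat2a 14.2% of the stretches were shared, and 11.3% of its exon bases overlap Particl, a gene on the opposite strand that is not a row of the count table. In Bhmt 26.1% were shared. In Ahcy the share was 68.7%, with Gm4737, Gm9826, Gm5638 and Gm4913 as the leading sources, so the counts of Ahcy are uncertain and can be too low.

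**Figure D1:**
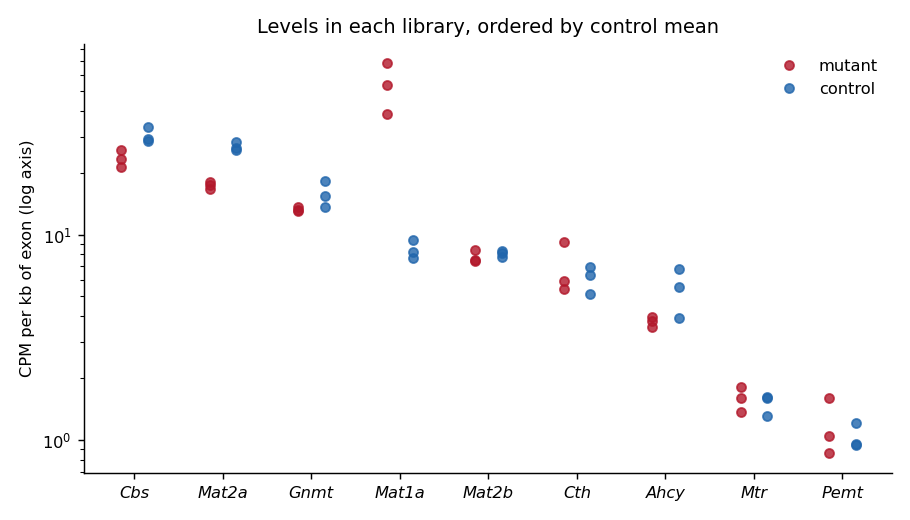
CPM per kb of exon on a log axis for 9 of the 10 genes, ordered by the control mean, with 1 point per library, mutants left and controls right within each gene; Bhmt is left out because its controls had 0 counts. Cbs and Mat2a lead the control order, at means of 30.4 and 26.8, and Mat1a leads the mutant order at 53.4.

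Levels of different genes were compared as CPM per kb of annotated exon. The length joined the exons of all annotated transcripts of a gene, and the annotation used for counting is not given. The order and the ranks between genes therefore depend on these lengths. In control pancreas the order of means was Cbs, Mat2a, Gnmt, Mat1a, Mat2b, Cth, Ahcy, Mtr and Pemt, with Bhmt at 0. Cbs, the enzyme that joins homocysteine to serine, averaged 30.4 ± 2.50 CPM per kb (SD, n = 3) in controls, above 96.1% of the 11822 tested genes that had an exon length. Mat2a averaged 26.8 ± 1.199 and Gnmt, the glycine N-methyltransferase, 15.7 ± 2.31 CPM per kb in controls, above 95.4% and 91.0% of genes. Mat1a and Mat2b overlapped in controls, between 7.68 and 9.40 and between 7.80 and 8.33 CPM per kb. Cth, which releases cysteine from cystathionine, and Ahcy also overlapped in controls, at 5.12 to 6.93 and 3.91 to 6.78 CPM per kb. Mtr, the methionine synthase, and Pemt lay in the lower part of the distribution, above 29.9% and 20.8% of genes in controls.

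In mutant pancreas the order of means was Mat1a, Cbs, Mat2a, Gnmt, Mat2b, Cth, Ahcy, Mtr and Pemt. Mat1a moved to the head of the list with 53.4 ± 14.7 CPM per kb (SD, n = 3) in mutants, above 98.2% of genes, against 8.44 ± 0.880 CPM per kb in controls, above 81.4% of genes. The other 8 detected members kept their order among themselves. In mutants Mat2b and Cth overlapped, at 7.47 to 8.38 and 5.44 to 9.25 CPM per kb, as did Mtr and Pemt, at 1.38 to 1.82 and 0.860 to 1.599 CPM per kb. The other neighbours of the mutant order did not overlap.

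**Figure D2:**
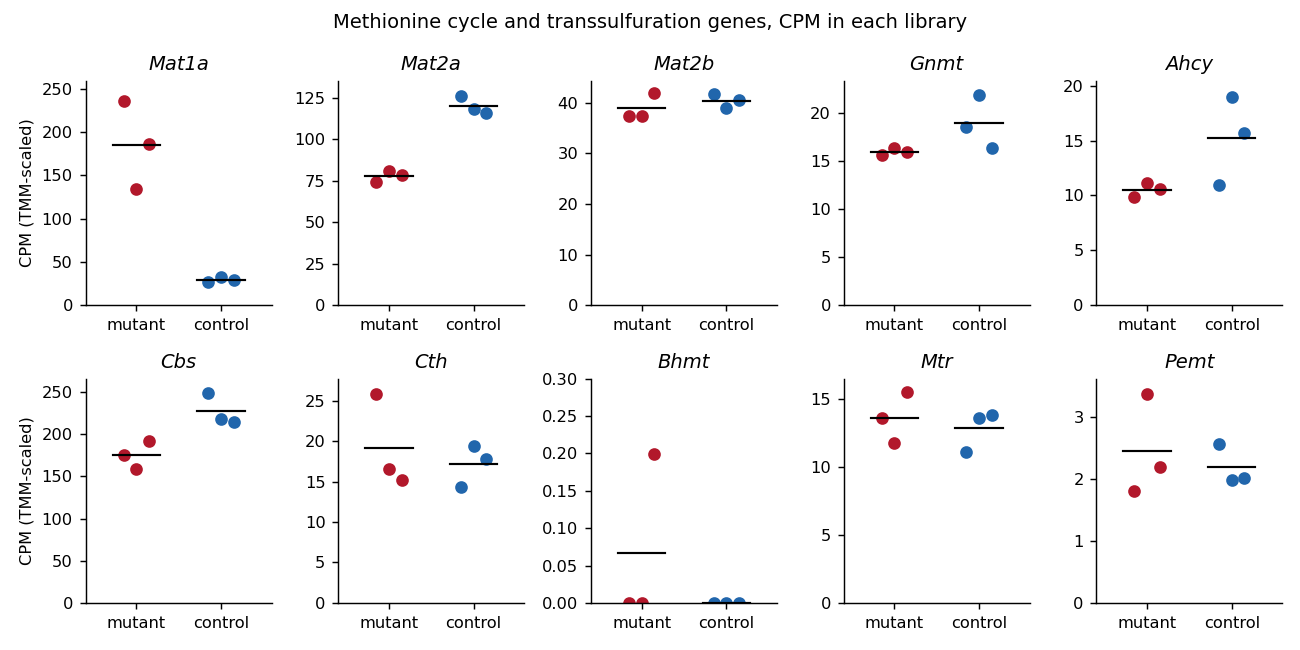
CPM after TMM scaling for each of the 10 genes, with 1 point per library, mutants left and controls right, and a line at the mean of 3 libraries; every axis starts at 0. The groups are apart in Mat1a, Mat2a and Cbs, and in the other panels they overlap.

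Of the 10 members 9 passed the filter on low counts, and in the fit across all 13017 genes Mat1a was among the genes called higher and Mat2a among those called lower in mutants, while 7 were not called. Over all genes tested 2.06% were called at an adjusted p under 0.05, 0.545% as higher and 1.51% as lower. In 3 of the 9 members, Mat1a, Mat2a and Cbs, all mutant CPM lay on one side of all control CPM, which held for 19% of all genes tested. The median log2 fold change of the 9 members was -0.05 and that of all genes 0.00. These shares are given beside each other only, since the members were chosen on this contrast. Without mutant 1 the number of called members was 1, Mat1a alone, and without control 1 and mutant 2 together it was 3, with Ahcy as the added one.

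Mat1a had 236, 134 and 186 CPM in mutants 1 to 3, against 26.6, 32.6 and 28.5 CPM in controls 1 to 3. Every mutant library lay above every control library, and the lowest mutant was mutant 2. The fold change was 6.32 in favour of mutants, or 2.66 ± 0.20 on the log2 scale (SE, n = 3 each), which placed Mat1a 14th from the top among the log2 fold changes of all genes tested. The spread among mutants was wide, with a coefficient of variation of 27.5% in mutants and 10.4% in controls. Mutant 1, which had the most Mat1a, had the least Prox1 of the 3 mutants. Leaving out any 1 library moved the log2 fold change of Mat1a between 2.45 and 2.85, and without control 1 and mutant 2 together it was 2.79.

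Mat2a had 74.6, 81.2 and 78.3 CPM in mutants 1 to 3, against 126, 118 and 116 CPM in controls 1 to 3. All mutant values lay in a narrow band below all control values. Mat2a was 1.54-fold lower in mutants, with a log2 fold change of -0.62 ± 0.09 (SE, n = 3 each), and the coefficient of variation was 4.28% in mutants and 4.48% in controls. With library totals alone as the scaling, which moved the median of all genes to 0.17, the log2 fold change of Mat2a was -0.45, so the gap to that median was kept. Reads of Particl cannot be told apart from those of Mat2a in the shared exon bases, since the strand setting of the counting is not given in the sources used here.

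**Figure D3:**
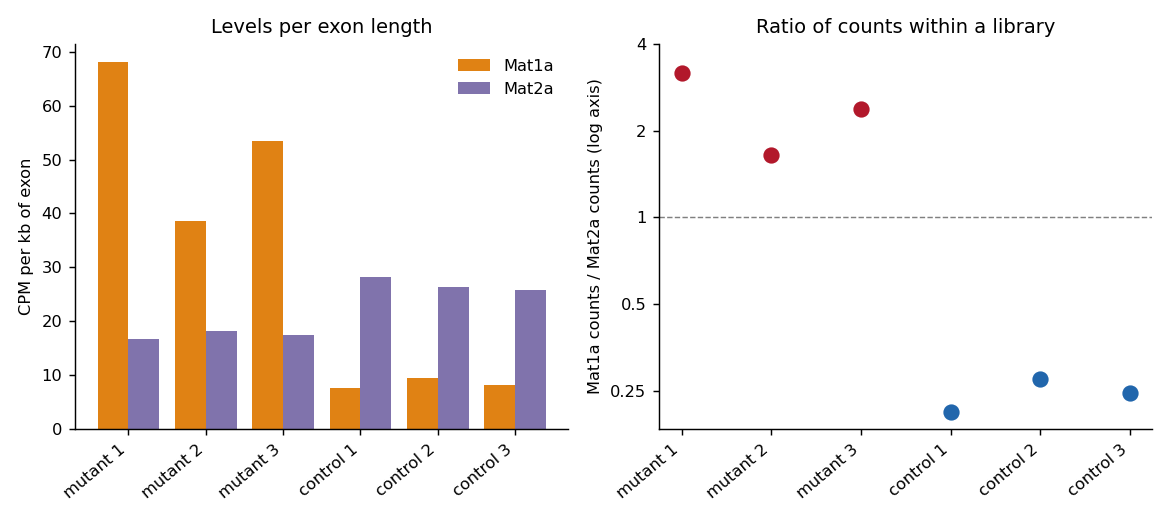
Left, Mat1a and Mat2a as CPM per kb of exon in each of the 6 libraries, as bars from 0; right, the ratio of Mat1a counts to Mat2a counts in each library on a log axis, with a dashed line at 1. All 3 mutants lie above 1, between 1.65 and 3.17, and all 3 controls below it, between 0.211 and 0.275.

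The ratio of Mat1a counts to Mat2a counts, which does not depend on the scaling of a library, was 3.17, 1.65 and 2.37 in mutants 1 to 3, against 0.211, 0.275 and 0.247 in controls 1 to 3. Mat2a was the more abundant of the pair in every control and Mat1a in every mutant. On the log2 scale the ratio averaged 1.21 ± 0.47 in mutants and -2.04 ± 0.19 in controls (SD, n = 3 each), a difference of 3.25 or 9.53-fold. Per kb of exon the ratio was 4.09, 2.13 and 3.07 in mutants 1 to 3, against 0.273, 0.356 and 0.319 in controls 1 to 3, so the order of both genes turned on this scale as well. Mat1a took 76.0%, 62.3% and 70.3% of the counts of both genes together in mutants 1 to 3, against 17.4%, 21.6% and 19.8% in controls 1 to 3. The exact binomial 95% intervals of these shares, which cover counting error only, ran from 60.01% to 77.5% over the mutants and from 15.1% to 23.9% over the controls. The summed CPM of Mat1a and Mat2a was 263 ± 47.7 in mutants and 149 ± 4.44 in controls (SD, n = 3 each), so the higher level of Mat1a exceeded the lower level of Mat2a.

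The promoter of Mat2a is shown because Mat2a was the called member that was lower in mutants. RefSeq sequence on GRCm38.p6 was found for 8 of the 10 members, among them Mat2a, at chr6:72439507-72439806 on the minus strand, from 250 bases before to 50 bases after the annotated start. Capitals mark the letters of 3 motifs on either strand, which are TATAAA of the TATA box, GGGCGG of the Sp1 box and CCAAT of the CCAAT box.
Mat2a: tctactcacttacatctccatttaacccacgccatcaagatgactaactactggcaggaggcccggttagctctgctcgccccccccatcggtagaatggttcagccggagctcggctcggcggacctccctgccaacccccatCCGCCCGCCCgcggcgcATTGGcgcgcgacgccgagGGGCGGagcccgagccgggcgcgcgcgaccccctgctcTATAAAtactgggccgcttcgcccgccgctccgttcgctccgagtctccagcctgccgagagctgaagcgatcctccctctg
A match to TATAAA began 32 bases before the start, and upstream of it lay 3 matches to GGGCGG, of which 2 overlap each other, and 1 match to CCAAT at position -89. Among all 32851 RefSeq promoter windows of this length, 13.6% held TATAAA, 35.7% held GGGCGG and 37.4% held CCAAT. The window of Mat2a had 34 CpG dinucleotides, more than 92.3% of all windows, where the median was 7. The letters CAAGGTCA, a site bound by the acinar nuclear receptor Nr5a2, were in 1.56% of all windows and in the window of Bhmt, and the letters TGATGNAA, the core of elements bound by ATF4, were in 3.97% of all windows and in none of the 9 windows of members. No match says only that these letters are not in the window. Windows for Mat1a and Cth were not used here.

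Mat1a is a gene known for liver, so hepatocyte markers were read beside it. Of 26 hepatocyte markers 7 passed the filter, 1 was called higher and 0 lower by edgeR, and the sum of all 26 was between 221 and 404 CPM in mutants and between 264 and 308 CPM in controls. The markers Apoc3, Serpina1a and Cyp7a1 had 0 counts in all 6 libraries, and Cps1, an enzyme of the urea cycle, had at most 0.190 CPM in mutants and 0 CPM in controls. How reads with several matches were handled is not given. For a gene with close relatives, such as Serpina1a, 0 counts therefore need not mean absent RNA. Hba-a1 and Hba-a2 of the erythroid markers also had 0 counts in all 6 libraries. Ahsg, the plasma protein fetuin-A, was the marker that rose, with 48.8, 14.3 and 33.0 CPM in mutants 1 to 3, against 0, 0.442 and 0 CPM in controls 1 to 3 (edgeR adjusted p = 0.000524). Alb, the albumin gene, had 15.5, 13.0 and 37.5 CPM in mutants 1 to 3, against 12.3, 7.18 and 7.69 CPM in controls 1 to 3, and missed the threshold (edgeR adjusted p = 0.15). Mat1a and Ahsg were both highest in mutant 1 and lowest in mutant 2, whereas Alb was highest in mutant 3. Any part of hepatocyte-like RNA in the level of Mat1a was not tested.

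The genes whose centred log2 CPM profile lay nearest to that of Mat1a over the 6 libraries, out of 10034 genes with a mean of at least 5 CPM, were Aldh1b1, Agt and Gc, at Euclidean distances of 0.582, 0.957 and 0.965. Aldh1b1, a mitochondrial aldehyde dehydrogenase, had 90.4, 66.8 and 75.4 CPM in mutants 1 to 3, against 8.87, 12.6 and 15.6 CPM in controls 1 to 3. Agt, which encodes angiotensinogen, had 25.4, 9.515 and 28.05 CPM in mutants 1 to 3, against 3.46, 3.09 and 4.33 CPM in controls 1 to 3. Gc, which encodes the vitamin D-binding protein, had 806, 663 and 673 CPM in mutants 1 to 3, against 150, 93.9 and 173 CPM in controls 1 to 3. Agt and Gc were not on the list of hepatocyte markers. For Mat2a the nearest were Tmed6, Cited2 and Erp27, at distances of 0.113, 0.117 and 0.124. Erp27, a protein of the endoplasmic reticulum, had 300, 342 and 318 CPM in mutants 1 to 3, against 545, 473 and 450 CPM in controls 1 to 3. These genes were found by likeness to the members, and the distances are a description.

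Genes next to Mat1a and Mat2a on the chromosome were read as well, the 2 protein-coding genes of the count table on either side. Next to Mat1a, Dydc1, Dydc2 and Mbl1 had between 2 and 4 counts in all 6 libraries together. Sftpa1, a surfactant protein gene that begins 7.37 kb beyond the end of Mat1a, had 1.24, 0.348 and 1.497 CPM in mutants 1 to 3, against 0, 0.111 and 0 CPM in controls 1 to 3, and was too low to be tested. Next to Mat2a, Ggcx, 2.09 kb away, had a log2 fold change of -0.28 ± 0.16 and Vamp8 one of -0.19 ± 0.10, and none of them, nor Capg and Elmod3, was called (edgeR adjusted p = 0.545, 0.492, 0.796 and 0.430).

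Mat2b, the regulatory subunit gene (chromosome 11, 40679314 to 40695203, minus strand), had 37.4, 37.4 and 41.9 CPM in mutants 1 to 3, against 41.7, 39.0 and 40.6 CPM in controls 1 to 3. The groups overlapped, and the log2 fold change was -0.05 ± 0.10 (SE, n = 3 each). With library totals alone it was 0.11, below the median of 0.17 that all genes had there. The ratio of Mat2b counts to Mat2a counts was 0.502, 0.460 and 0.536 in mutants 1 to 3, against 0.330, 0.329 and 0.350 in controls 1 to 3, 1.48-fold higher in mutants.

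Gnmt (chromosome 17, 46725664 to 46729168, minus strand) had 15.6, 16.4 and 15.9 CPM in mutants 1 to 3, against 18.5, 21.9 and 16.3 CPM in controls 1 to 3. The mutant libraries lay close together and overlapped the lowest control, and the log2 fold change was -0.24 ± 0.13 (SE, n = 3 each), moving to -0.12 without control 2 and to -0.08 with library totals alone. Gnmt stood at 0.0662, 0.122 and 0.0855 counts for each count of Mat1a in mutants 1 to 3, against 0.695, 0.671 and 0.572 in controls 1 to 3. The ratio was 7.29-fold lower in mutants, beside a fold change of 6.32 in Mat1a itself.

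Ahcy (chromosome 2, 155059310 to 155074497, minus strand) had 9.90, 11.1 and 10.6 CPM in mutants 1 to 3, against 10.98, 19.0 and 15.7 CPM in controls 1 to 3. Control 1 lay among the mutants, and controls varied by 26.5% (coefficient of variation) against 5.88% in mutants. The log2 fold change was -0.54 ± 0.19 (SE, n = 3 each), with -0.36 without control 2 and -0.72 without control 1. The shared sequence of this gene named above limits all of these values.

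Cbs (chromosome 17, 31608894 to 31637238, minus strand) had 175, 159 and 193 CPM in mutants 1 to 3, against 248.7, 219 and 214 CPM in controls 1 to 3. The groups did not overlap, with means of 176 ± 16.9 CPM in mutants and 227 ± 18.7 CPM in controls (SD, n = 3 each). The log2 fold change was -0.37 ± 0.12 (SE), and Cbs was not among the called genes. With library totals alone the log2 fold change was -0.21 and without control 1 and mutant 2 together -0.24. Cth (chromosome 3, 157894248 to 157925077, minus strand) had 25.8, 16.6 and 15.2 CPM in mutants 1 to 3, against 14.3, 19.3 and 17.8 CPM in controls 1 to 3. Mutant 1 stood above all other libraries and the remaining mutants lay within the range of controls. The log2 fold change of Cth was 0.16 ± 0.20 and turned to -0.12 without mutant 1. For each count of Cth there were 6.79, 9.57 and 12.7 counts of Cbs in mutants 1 to 3, against 17.4, 11.3 and 12.1 in controls 1 to 3, with overlap.

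Among the genes that methylate homocysteine back, Mtr (chromosome 13, 12182712 to 12258113, minus strand) had 13.6, 11.7 and 15.5 CPM in mutants 1 to 3, against 11.1, 13.6 and 13.8 CPM in controls 1 to 3. The groups overlapped, with a log2 fold change of 0.08 ± 0.15 (SE, n = 3 each) that turned to -0.03 without mutant 3 and to -0.01 without control 1. Bhmt (chromosome 13, 93616675 to 93637961, minus strand) had 0, 0 and 2 counts in mutants 1 to 3, against 0, 0 and 0 counts in controls 1 to 3, at or under the limit of 3 counts in every library. No fold change was taken for it, and the betaine route from this gene was not detectable at this depth. Pemt, which makes phosphatidylcholine with S-adenosylmethionine (chromosome 11, 59970614 to 60046489, minus strand), had 1.81, 3.37 and 2.20 CPM in mutants 1 to 3, against 2.56, 1.99 and 2.02 CPM in controls 1 to 3, from between 17 and 29 counts per library. Its log2 fold change of 0.17 ± 0.32 turned to -0.10 without mutant 2.

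**Figure D4:**
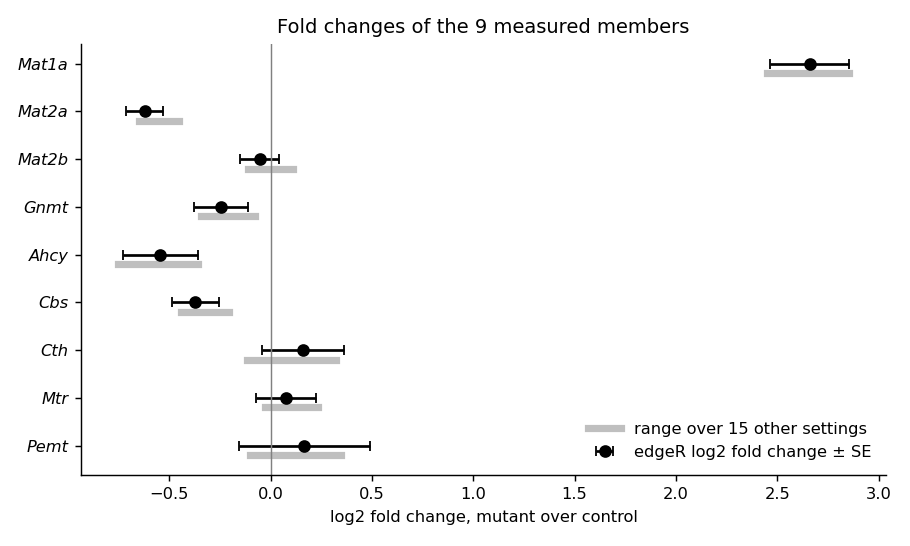
Log2 fold changes of mutant over control for the 9 members that passed the filter, as points with the standard error, and as grey bars the range over 15 other settings. Mat1a at 2.66 stands far to the right, Mat2a at -0.62 stays left of 0 throughout, and Mat2b, Cth, Mtr and Pemt cross 0 under some settings.

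Around the members, 8 lists of genes named for their role in adjoining pathways held 186 symbols of the table, of which 160 passed the filter on low counts. By edgeR 0 of the 160 rose and 3 fell, a share of 1.88% beside 2.06% of all genes tested. At an unadjusted p under 0.05 it was 16 higher and 24 lower, or 25% beside 12.8% of all genes, and by DESeq2 4 higher and 6 lower, or 6.25% beside 2.58%. All mutants lay on one side of all controls in 49 of the 160, or 30.6% beside 19%. How the listed genes compare with all others thus differed with the measure, and the median log2 fold change was -0.02 beside 0.00 for all genes. Those that fell were Papss2, Sdsl and Pipox. Pipox, the peroxisomal oxidase of sarcosine, which is the product of Gnmt, had 32.5, 36.1 and 36.1 CPM in mutants 1 to 3, against 50.8, 44.2 and 50.2 CPM in controls 1 to 3 (log2 fold change -0.47 ± 0.10, edgeR adjusted p = 0.0466). Papss2, which makes the activated sulfate used by sulfotransferases, had 13.0, 9.98 and 11.1 CPM in mutants 1 to 3, against 22.0, 17.6 and 19.0 CPM in controls 1 to 3 (-0.77 ± 0.15, edgeR adjusted p = 0.0237). Sdsl, a relative of serine dehydratase, had 7.90, 6.38 and 5.49 CPM in mutants 1 to 3, against 14.1, 12.2 and 11.3 CPM in controls 1 to 3 (-0.92 ± 0.17, edgeR adjusted p = 0.0245). In all 3 genes the mutants lay below the controls. With library totals alone 0 of the 160 fell and 7 rose, and all 3 calls were lost (edgeR adjusted p = 0.161 for Pipox, 0.0593 for Papss2 and 0.0619 for Sdsl). No call remained without control 2 or without control 3. Papss2 and Sdsl were also lost without mutant 3 (edgeR adjusted p = 0.107 and 0.105), where Trib3 was the one call, and without control 1 (edgeR adjusted p = 0.0738 and 0.0812), where Atf5 and Ddit3 were called higher. Pipox was lost when any 1 library was left out and with the replicate block (edgeR adjusted p = 0.117). Over the 6 left-out libraries the log2 fold changes stayed between -0.53 and -0.42 for Pipox, -0.88 and -0.68 for Papss2, and -1.07 and -0.80 for Sdsl.

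**Figure D5:**
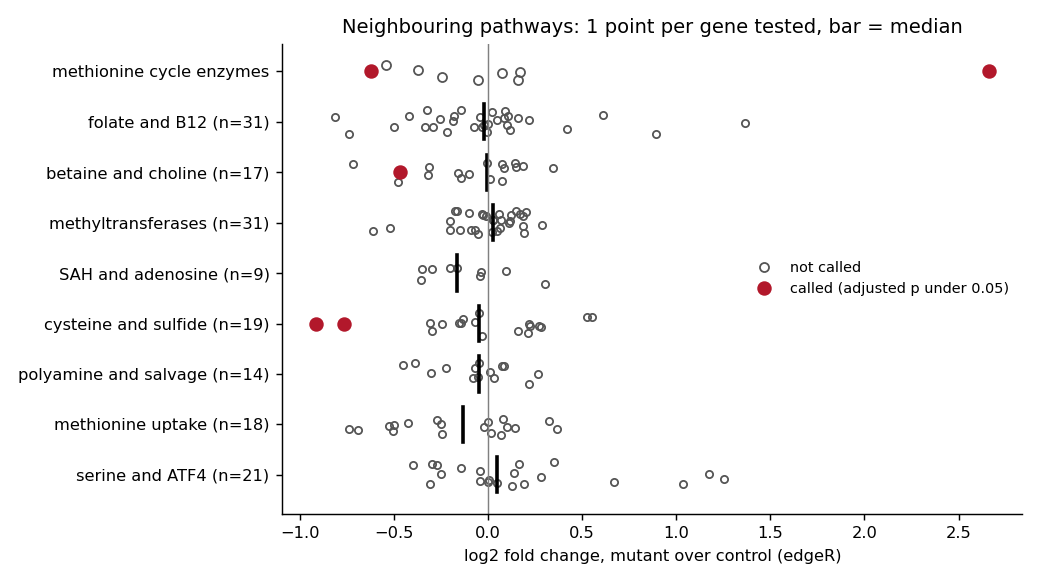
Log2 fold changes of mutant over control for the members in the top row and for the genes of 8 adjoining pathway lists below, 1 point per gene tested, filled red where called and with a bar at the list median; SAH stands for S-adenosylhomocysteine. The list medians lie between -0.17 and 0.05, and Mat1a is to the right of all listed genes.

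Each list was read on its own, again by edgeR. Shares at an edgeR unadjusted p under 0.05 were, in the order below, 29%, 23.5%, 9.68%, 33.3%, 31.6%, 0%, 38.9% and 38.1%, and 12.8% over all genes. By DESeq2 the shares were 0%, 11.8%, 3.23%, 0%, 10.5%, 0%, 5.56% and 19%, beside 2.58% of all genes. Of 31 folate and vitamin B12 genes 0 rose and 0 fell (4 higher and 5 lower at an unadjusted p under 0.05, 0 by DESeq2), with a median of -0.02. The lowest adjusted p of that list belonged to Folr2, a folate receptor known from macrophages, with 11.9, 10.1 and 12.8 CPM in mutants 1 to 3, against 7.22, 7.07 and 8.46 CPM in controls 1 to 3 (edgeR adjusted p = 0.0947). Of 17 betaine and choline genes 0 rose and 1 fell, Pipox (1 higher and 3 lower unadjusted, 2 lower by DESeq2), with a median of -0.00. Of 31 methyltransferase genes 0 rose and 0 fell (1 higher and 2 lower unadjusted, 1 lower by DESeq2), with a median of 0.02, and the lowest adjusted p belonged to Gatm, which makes the substrate of the creatine methyltransferase Gamt and is no methyltransferase itself. Gatm had 461, 489 and 472 CPM in mutants 1 to 3, against 755, 631 and 657 CPM in controls 1 to 3 (-0.52 ± 0.12, edgeR adjusted p = 0.0625).

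Of 9 genes of S-adenosylhomocysteine and adenosine 0 rose and 0 fell (1 higher and 2 lower unadjusted, 0 by DESeq2), with a median of -0.17 and Ampd2, an AMP deaminase, as the lowest adjusted p (-0.30 ± 0.10, edgeR adjusted p = 0.207). Of 19 genes of cysteine, sulfide and taurine 0 rose and 2 fell, Papss2 and Sdsl (3 higher and 3 lower unadjusted, 2 lower by DESeq2), with a median of -0.05. Of 14 polyamine and methionine salvage genes 0 rose and 0 fell (0 unadjusted, 0 by DESeq2), with a median of -0.05, and Smox, the spermine oxidase, had the lowest adjusted p, 0.429 by edgeR. A further 5 genes of that list were too low to be tested. Among them were Amd1 and Amd2, with 0 counts in all 6 libraries, so the list was not read in full. Of 18 genes of methionine uptake and sensing 0 rose and 0 fell (1 higher and 6 lower unadjusted, 1 lower by DESeq2), with a median of -0.13 and Slc7a6, an amino acid exchanger, first (-0.50 ± 0.13, edgeR adjusted p = 0.0893). Of 21 serine synthesis and ATF4 target genes 0 rose and 0 fell (5 higher and 3 lower unadjusted, 4 higher by DESeq2), with a median of 0.05. There Atf3, a stress-induced transcription factor, had 7.81, 5.45 and 7.39 CPM in mutants 1 to 3, against 1.65, 3.65 and 3.17 CPM in controls 1 to 3 (1.25 ± 0.28, edgeR adjusted p = 0.0551). Atf3 was called in 6 of 15 other settings, DESeq2 among them (adjusted p = 0.0163).

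Some genes that border the cycle directly, named here for their place in it and outside the rule for named genes, are given as values. Mtrr, which restores Mtr, had a log2 fold change of 0.12 ± 0.17 (SE, n = 3 each). Gamt had 90.5, 69.6 and 84.1 CPM in mutants 1 to 3, against 84.2, 86.2 and 91.3 CPM in controls 1 to 3. Sardh, the mitochondrial sarcosine dehydrogenase, had 15.9, 9.40 and 16.0 CPM in mutants 1 to 3, against 22.0, 23.1 and 23.3 CPM in controls 1 to 3 and missed the threshold (edgeR adjusted p = 0.0910). Mettl16, a methyltransferase known to act on Mat2a RNA, had a log2 fold change of 0.11 ± 0.12. Cdo1, which oxidises cysteine, had one of -0.13 ± 0.13, and Odc1, the first enzyme of polyamine synthesis, had one of -0.05 ± 0.11. Bhmt2, a relative of Bhmt that uses S-methylmethionine, had 3, 2 and 6 counts in mutants 1 to 3, against 1, 0 and 3 counts in controls 1 to 3 and was not tested.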

How the data were processed

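RNA sequencing of whole mouse pancreas at postnatal day 7 gave 3 mutant and 3 control libraries, grouped by their titles. The values deposited by the authors were whole-number counts per gene symbol, 1 file per library, per the file headers. Per the submitters' processing notes, the build was mm10 and the tools named, without role or order, were HTSeq 0.6.1p1, STAR, DESeq2 and cutadapt 1.13. Annotation, strand setting and handling of reads with several matches: not given in the sources used here. No library repeated another, since chi-square per degree of freedom within groups was between 5.83 and 20.5.

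Tests used edgeR 4.0.16 in R 4.3.3 (quasi-likelihood) with TMM scaling, filterByExpr at default settings and Benjamini-Hochberg adjustment over 13017 genes at a threshold of 0.05, mutant over control, with no covariate. Each SE was taken as the size of the log2 fold change over the root of its F value. The procedure was tested on simulated data. CPM used TMM-scaled library sizes, exon lengths came from GENCODE M21 (GRCm38, the assembly of mm10), and likeness was the Euclidean distance of centred log2 CPM with a prior count of 2. Alternatives were other scalings, filters and dispersions, DESeq2 1.42.0, the replicate block and libraries left out.

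The members and lists were chosen with earlier results of these data known. Named were all members, Prox1 and Ptf1a, up to 4 called genes per list or else the one with the lowest adjusted p, and 3 genes nearest to Mat1a and to Mat2a. Ahsg, Alb, Cps1, the genes next to a member on the chromosome and those bordering the cycle were added after values were seen.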

Additional observations from a re-analysis of the deposited data

How the results depend on the processing

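Across 15 alternatives Mat1a stayed higher, with log2 fold changes between 2.45 and 2.85, Mat2a stayed lower, between -0.65 and -0.45, and Gnmt, Ahcy and Cbs stayed below 0. The signs of Cth, Mtr and Pemt changed under 1, 2 and 2 of them, and that of Mat2b only with library totals alone, where the median of all genes moved to 0.17. For the ratio of Mat1a to Mat2a 9 alternatives were run, with log2 differences between 3.03 and 3.50. Leaving out 1 library gave between 125 and 301 called genes in all, 1 and 2 called members, and 0 and 3 called pathway genes, against 268, 2 and 3 with all libraries. By library the totals were 139, 301 and 178 without mutants 1 to 3 and 193, 125 and 140 without controls 1 to 3. Without control 1 and mutant 2 together 484 genes in all (3.7%) and 9 pathway genes (5.59%) were called. The number of called pathway genes was 7 with library totals alone (4.38%, beside 2.46% of all genes), 10 with DESeq2 (6.25% beside 2.58%), 6 with no low-count filter (3.31% beside 1.76%) and 6 with a robust dispersion (3.75% beside 2.28%); Ddit3, Atf5 and Trib3, chosen after their values were seen, were among the added genes that were higher by DESeq2. Higher genes made up 59.4% of the calls with library totals alone and 26.5% with TMM. The replicate block gave 241 called genes, 2 members and 2 pathway genes. Same-numbered libraries deviated together with correlations of 0.08, 0.03 and -0.07. With 3 libraries per group these values cannot decide whether the numbers pair the samples. The cause of each of these shifts was not tested. Pemt rests on 17 to 29 counts per library, and each group on 3 libraries.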
